A study of Sus scrofa with 25 samples.

Results

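The genes of the pyruvate dehydrogenase complex and the tricarboxylic acid (TCA) cycle were followed in muscle of 25 pigs. A list of 32 symbols was matched to Ensembl pig gene identifiers, and a gene was kept if it had a count in at least 13 of the 25 libraries. This left 30 members, among 11841 genes that met the same minimum and 25879 gene identifiers analysed. Of the other two symbols, MPC1 matched no identifier and has no value here, and PC (pyruvate carboxylase, which makes oxaloacetate from pyruvate) had counts in 11 libraries, with at most 43 reads in one library. This rule uses no measured difference, but the list was chosen with earlier results of these data known.

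The pigs were crosses of Polish Large White sows with Landrace boars, penned one by one. From day 85 of life they ate feeds of equal protein and energy for 90 days, with vitamin D3 at 0 IU/kg in the control (8 pigs), 5000 IU/kg in D5000 (8 pigs) or 10000 IU/kg in D10000 (9 pigs), and littermates were spread over the 3 diets. Each pig gave 1 library, numbered here by its animal number, so that the pig is the replicate. Which muscle was taken, and each pig's litter and sex, are not stated in the labels. The study asked what vitamin D3 in feed does to muscle transcripts.

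Pyruvate from glycolysis crosses the inner mitochondrial membrane through the mitochondrial pyruvate carrier and is turned into acetyl-CoA by the pyruvate dehydrogenase complex. Kinases (PDK) phosphorylate the complex and switch it off, and phosphatases (PDP) switch it on again. In muscle this is the gate between carbohydrate and fat as fuels, and PDK4 is the kinase that rises in fasting. The TCA cycle then oxidises acetyl-CoA step by step and passes electrons to the respiratory chain, partly through succinate dehydrogenase, which is also complex II of that chain.

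Libraries held 3310507 to 15177976 reads assigned to genes. These were 24.9% to 70.6% of the sum of gene, no-feature, ambiguous and non-uniquely aligned reads. D10000 replicate 27 stood apart. Its summed level of 18 adipocyte markers was 35680 CPM (reads of a gene scaled to a library total of 1000000) against 1272 to 3869 in the others, and that of 13 skeletal muscle markers was 13770 against 73790 to 253200. Liver transcripts were counted in every library (13 markers, 3567 to 40250 CPM in all), while 4 of 6 kidney markers were at 0. The 6 lung markers each had a count in some library, and their sum ran from 0 to 149.9 CPM. The share of reads assigned fell as albumin (ALB) rose across libraries (Pearson r = -0.807 and Spearman rho = -0.825 over 25 libraries, both with adjusted p = 4e-05 by permutation within diets). Neither the share (58.4% ± 8.76 in the control, 51.8% ± 12.6 in D5000 and 53.5% ± 13.1 in D10000, mean ± SD) nor ALB differed between diets beyond the spread of the pigs, with adjusted p of at least 0.796 in exact permutation tests. Results below are also given without 5 libraries, namely D10000 replicate 27 and the 4 with under 45% of reads assigned (D5000 replicates 11 and 18, D10000 replicates 2 and 7). In muscle pieces, fewer cells of a type and less RNA per cell cannot be told apart.

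Among the members, the most abundant transcript was IDH2, which encodes the NADP-dependent mitochondrial isocitrate dehydrogenase, at a median of 430.9 CPM over the 25 libraries. CS (citrate synthase, the entry step of the cycle) followed at 329 CPM, SDHC (a membrane anchor of succinate dehydrogenase) at 299 CPM, SUCLG2 (the GTP-forming subunit of succinyl-CoA ligase) at 295 CPM and SUCLG1 (the subunit common to both forms of that ligase) at 267 CPM. The neighbours in this order overlapped across libraries. The lowest were PDP2 at 3.39 CPM and PDHX, the binding protein that holds the E3 subunit in the pyruvate dehydrogenase complex, at 1.32 CPM. These libraries read the 3' end of each mRNA, so a CPM does not grow with transcript length, but it does depend on whether the annotated 3' end covers the true one. Members varied less from pig to pig than most genes: the biological coefficient of variation (the spread between replicates beyond counting error) had a median of 0.456 over members and 0.585 over all 10992 genes tested, and 26 of 30 members were under the latter. Genes with an average abundance between those of the lowest and the highest member had a median of 0.566. That range is wide and the genes were not matched to the members, so the part of abundance was not tested.

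Within the pyruvate dehydrogenase complex, PDHA1 encodes the alpha subunit of the E1 enzyme, which the kinases phosphorylate. Its levels ran from 77.8 to 123 CPM in the control (median 106), from 74.3 to 206 CPM in D5000 (median 124) and from 46.3 to 391 CPM in D10000 (median 121). The 3 diets overlapped, and the 2 highest values belonged to D10000 replicate 27 and D5000 replicate 29. The fitted log2 fold change of PDHA1 was 0.15 ± 0.32 (SE) at 5000 IU/kg and 0.15 ± 0.31 at 10000 IU/kg, and without D10000 replicate 27 the latter was -0.10. PDHB, the E1 beta subunit, ran from 24.0 to 88.0 CPM over the 25 libraries, DLAT, the E2 core that carries the acetyl group, from 15.2 to 50.1 CPM, and DLD, the E3 enzyme that the complex has in common with 2-oxoglutarate dehydrogenase, from 15.9 to 94.6 CPM.

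PDK4 was the main kinase transcript. It took 64.2% ± 14.1 (SD, n = 25) of the reads of PDK1 to PDK4 and was the highest of the 4 in 24 of 25 libraries. The exception was D10000 replicate 27, where PDK1 took 36.9% and PDK4 26.9%. PDK4 ranged from 74.6 to 287 CPM in the control with a median of 136, from 51.1 to 229 CPM in D5000 with a median of 98.4, and from 42.4 to 237 CPM in D10000 with a median of 129.9. Each diet had pigs on both sides of the medians of the other diets, so the ranges overlapped widely. Its log2 fold change was -0.47 ± 0.31 at 5000 IU/kg and -0.43 ± 0.30 at 10000 IU/kg (adjusted p = 0.9986 and adjusted p = 0.9997 in edgeR). Without the 5 libraries the difference at 5000 IU/kg was -0.68, which passed 0.05 before adjustment but not after it (adjusted p = 1 in edgeR).

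PDK2, the kinase found in most tissues, was low, with medians of 13.3 CPM in the control, 13.9 CPM in D5000 and 18.5 CPM in D10000 and ranges of 8.06 to 41.5, 0.833 to 31.01 and 3.86 to 32.1 CPM. Its log2 fold changes were -0.24 ± 0.43 and -0.01 ± 0.42. PDK3 medians were 23.7, 28.5 and 33.2 CPM in the same order, and its log2 fold changes of 0.33 ± 0.30 and 0.35 ± 0.29 did not pass the test. Of the phosphatases, PDP1, the calcium-stimulated form, took 83.8% ± 16.4 (SD, n = 25) of the reads of the pair and was the higher in 23 of 25 libraries. PDP2, the other form, was at -0.36 ± 0.58 between the doses, and at -1.22 without the 5 libraries, where it passed 0.05 only before adjustment (adjusted p = 0.999 in edgeR). MPC2, a subunit of the mitochondrial pyruvate carrier, had medians of 123 CPM in the control, 90.5 CPM in D5000 and 124 CPM in D10000, with overlapping ranges.

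**Figure D1:**
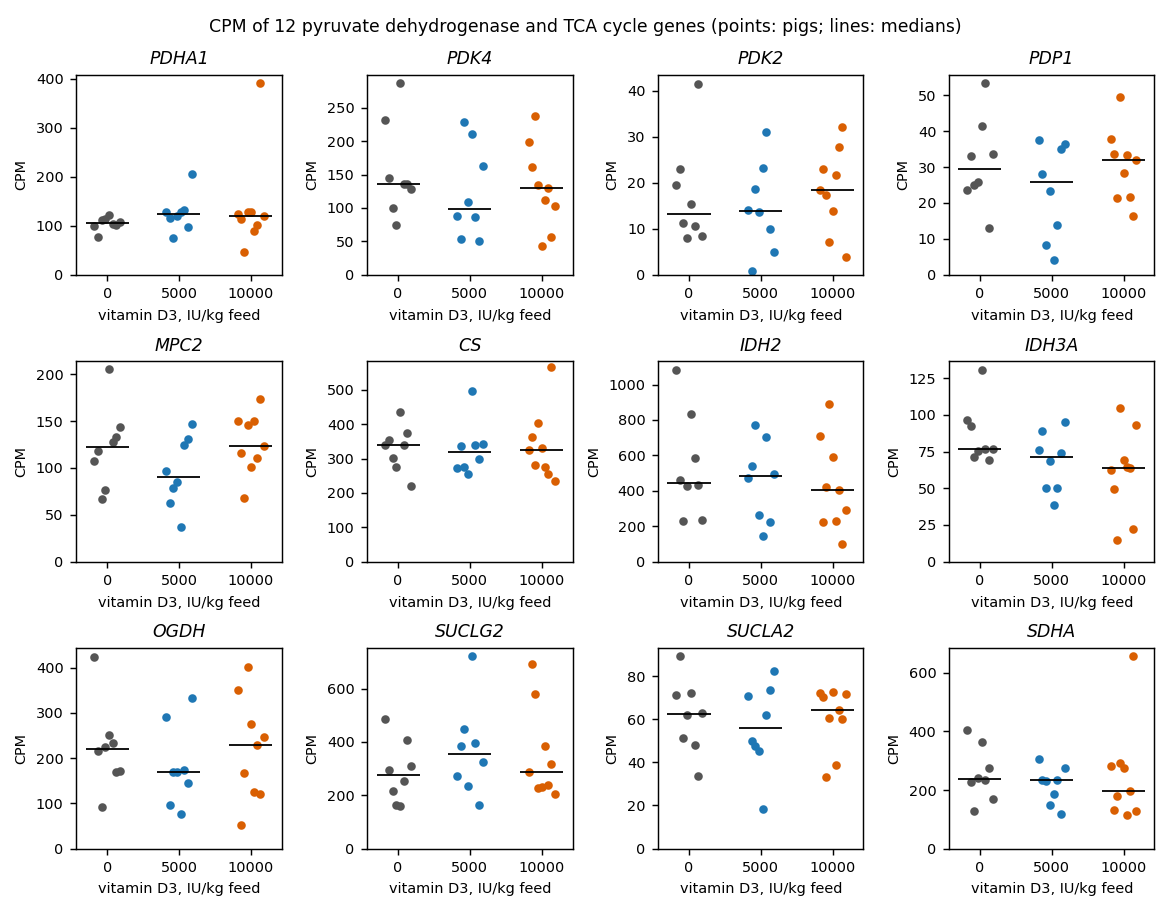
CPM (vertical axis) of 12 members in each pig (points) by vitamin D3 in feed in IU/kg (horizontal axis), with a line at the median of the diet. The diets overlap in every panel, and D10000 replicate 27 gives the single high points of PDHA1 (391 CPM), CS (565.5 CPM) and SDHA (657 CPM).

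In the first steps of the cycle, CS varied least of these genes. Its range was 221 to 437 CPM in the control (median 341), 256 to 497 CPM in D5000 (median 319) and 236 to 565.5 CPM in D10000 (median 325). The diets overlapped, and the log2 fold changes were -0.11 ± 0.24 and -0.18 ± 0.24. IDH2 spread far more, from 228 to 1082 CPM in the control (median 446), 144 to 772 CPM in D5000 (median 483) and 98.2 to 889 CPM in D10000 (median 404), with log2 fold changes of -0.28 ± 0.41 and -0.39 ± 0.40. IDH3A, the catalytic subunit of the NAD-dependent isocitrate dehydrogenase, had the smallest p of the members in the joint test of the 3 diets (unadjusted p = 0.243, edgeR). It ran from 69.5 to 131 CPM in the control (median 76.8), from 38.4 to 95.3 CPM in D5000 (median 71.5) and from 14.4 to 105 CPM in D10000 (median 63.9). The lowest control pig lay above the D10000 median, and the ranges of the 3 diets overlapped. The log2 fold change of IDH3A was -0.36 ± 0.37 at 5000 IU/kg and -0.60 ± 0.35 at 10000 IU/kg (unadjusted p = 0.0977, adjusted p = 0.9997 in edgeR). The value at 10000 IU/kg was -0.87 with limma-voom and -0.19 without the 5 libraries. It passed 0.05 before adjustment, though not after it, with limma-voom and without D10000 replicate 30. Its partner subunits IDH3B and IDH3G were at -0.09 ± 0.35 and -0.11 ± 0.30 at 10000 IU/kg.

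Further round the cycle, OGDH, the E1 enzyme of 2-oxoglutarate dehydrogenase, ranged from 92.6 to 424 CPM in the control, 77.4 to 332 CPM in D5000 and 52.3 to 400.5 CPM in D10000. Of the members of succinate dehydrogenase, SDHA, the flavoprotein that oxidises succinate, had medians of 238 CPM in the control, 233 CPM in D5000 and 197 CPM in D10000 with ranges of 128 to 405, 118 to 308 and 115 to 657 CPM. Its log2 fold changes were -0.29 ± 0.31 and -0.19 ± 0.30. SDHB, the iron-sulphur subunit, had medians of 197, 200.2 and 194 CPM in the same order. SDHAF2, which attaches the flavin to SDHA, was at -0.49 ± 0.31 at 10000 IU/kg (adjusted p = 0.9997 in edgeR). Without D10000 replicate 27 it was at -0.63, which again passed 0.05 only before adjustment (adjusted p = 0.998 in edgeR). FH (fumarase) had the lowest biological coefficient of variation of the members, at 0.321, and medians of 95.7, 92.3 and 86.4 CPM. In SD over mean of the CPM of all 25 libraries, SDHC (21.4%), SUCLG1 (21.9%) and CS (24.0%) lay below FH (25.8%). MDH2, the mitochondrial malate dehydrogenase, had medians of 112, 104 and 76.9 CPM and log2 fold changes of -0.25 ± 0.44 and -0.35 ± 0.42, and it took 64.9% ± 14.3 (SD, n = 25) of the reads of MDH1 and MDH2. MDH1, the cytosolic form, was at -0.49 ± 0.39 at 5000 IU/kg.

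No member passed the test for diet. With edgeR and an adjusted p under 0.05 as the threshold, 0 of 30 members and 0 of 10992 genes were called in each of the 3 contrasts and in the joint test. At an unadjusted p under 0.05, 0 members were called in each contrast, where the share of all genes that did so was 3.38% for the lower dose against control, 2.39% for the higher dose against control, 2.94% for the doses against each other and 2.66% in the joint test. The smallest adjusted p of a member was 0.9986, 0.9997 and 0.9986 in the 3 contrasts. The median SE over members was 0.32 at 5000 IU/kg and 0.31 in the other two contrasts, which is the precision the data allow for one gene. No member had diets that did not overlap, as for 0%, 0.00845% and 0% of 11841 genes. DESeq2 called 0 genes at the adjusted threshold, with 510, 339 and 393 genes at an unadjusted p under 0.05, and limma-voom called 0, with 401, 217 and 295.

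As a description, with no test, the fold changes lay below 0 in a larger share of members than of genes. At 5000 IU/kg 20 of 30 members were below 0 beside 49% of all genes, with a median of -0.15 against 0.01. At 10000 IU/kg 24 of 30 were below 0 beside 42.8% of genes, with a median of -0.18 against 0.07. Among the 24 were SDHA, SDHB, SDHC, SDHD and SDHAF2, and all 5 genes of the first steps (CS, IDH2, IDH3A, IDH3B and IDH3G). Both contrasts use the same 8 control pigs. The lean at 10000 IU/kg was not particular to the members. Of nuclear genes of oxidative phosphorylation 49 of 53 were below 0 (median -0.32), and of skeletal muscle markers 12 of 13 (median -0.36). Fatty acid oxidation genes had 12 of 20 below 0 (median -0.13), glycolysis genes 9 of 16 (median -0.10) and other pathway genes 15 of 32 (median 0.06). Against control, the median of the members moved with the share of reads assigned. With that share in the model, 10 of 30 members were below 0 at 5000 IU/kg beside 47.3% of genes (median 0.04 against 0.02). At 10000 IU/kg 19 of 30 were below 0 beside 46.3% of genes (median -0.05 against 0.03). Without the 5 libraries the counts were 14 and 15 of 30 beside 48.8% and 52.1% of genes, with medians of 0.03 and 0.01 against 0.01 and -0.02. Between 10000 and 5000 IU/kg, 21 of 30 members were below 0 beside 45.4% of genes, with a median of -0.08 against 0.04. In this contrast the count did not fall with the share in the model: 22 of 30 beside 47.7% of genes (median -0.13 against 0.02). Without the 5 libraries it was 18 of 30 beside 51.7% (median -0.07 against -0.02).

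**Figure D2:**
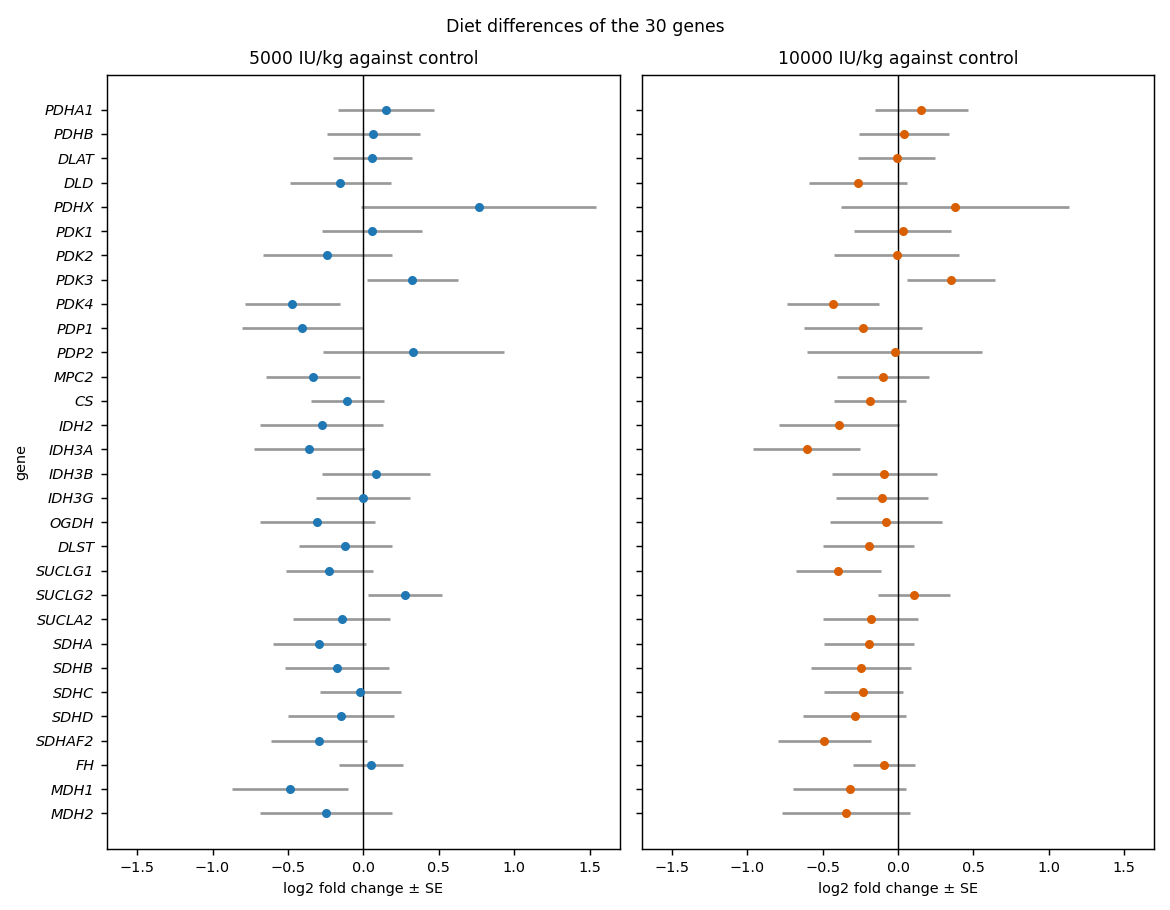
Log2 fold change ± SE (horizontal axis) of the 30 members (vertical axis) at 5000 IU/kg (left) and 10000 IU/kg (right) against the same control. Most points lie within about their SE of 0, with IDH3A at -0.60 the lowest at 10000 IU/kg and PDHX, the least abundant member, with the widest bars.

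Ratios of 2 members within a library do not depend on how libraries are scaled, and none of those tested passed for diet. Of 21 exact permutation tests (7 ratios in 3 contrasts, two-sided) the smallest p was 0.266 and its adjusted value 0.975. PDK4 over PDP1, kinase over phosphatase, had a mean log2 ratio of 2.30 ± 0.77 (SD) in the control, 2.52 ± 1.82 in D5000 and 1.99 ± 0.81 in D10000. SUCLA2 over SUCLG2 was at -2.17 ± 0.79, -2.70 ± 1.24 and -2.45 ± 0.91. MDH1 over MDH2 was at -0.92 ± 0.87, -1.23 ± 0.69 and -0.65 ± 1.18.

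Across pigs, most members followed the share of reads assigned to genes. With diet in the model, 17 of 30 members rose with the share and 1 fell, where 13.9% of genes rose and 14.9% fell (edgeR, adjusted p under 0.05). The median slope was 0.34 log2 units per 10 percentage points over members and 0.03 over all genes tested. OGDH rose by 0.62 ± 0.10 (adjusted p = 5.25e-05), MDH2 by 0.56 ± 0.14 (0.00324), MDH1 by 0.56 ± 0.11 (0.000389), PDP1 by 0.55 ± 0.13 (0.00126) and SUCLG1 by 0.42 ± 0.07 (7.2e-05). In the values by pig, the 2 libraries with the lowest shares had OGDH at 77.4 CPM (D5000 replicate 18) and 52.3 CPM (D10000 replicate 2), and the 2 with the highest shares at 224 CPM (control replicate 14) and 251.5 CPM (control replicate 16).

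Not all roles moved with the share. Rising members were 3 of 5 subunits of the pyruvate dehydrogenase complex, the phosphatase PDP1, MPC2 and 3 of 5 genes of the first steps. Both OGDH and DLST of 2-oxoglutarate dehydrogenase, SUCLG1, SUCLA2 and both malate dehydrogenases also rose. So did SDHA and SDHB of succinate dehydrogenase, and SDHAF2, which attaches the flavin to SDHA. None of the 4 kinases was called, and PDK4 had a slope of -0.03 ± 0.11. The slopes of CS (0.16 ± 0.07, adjusted p = 0.0869) and FH (0.06 ± 0.06, adjusted p = 0.508) did not pass. SUCLG2 was the member that fell, by 0.25 ± 0.06 (adjusted p = 0.0028). The count of 18 members stayed between 14 and 19 when any 1 library was left out, and SUCLG2 was called each time. Without the 5 libraries, 5 members were called (PDHB, PDP1, IDH3A, SUCLA2 and MDH1, all rising, where 3.76% of genes rose and 6.61% fell), and SUCLG2 was at -0.32 ± 0.11 with an adjusted p of 0.0646.

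Other gene lists differed in how many of their genes followed the share. Of nuclear genes of oxidative phosphorylation 38 of 53 rose and none fell (13 of 53 rose without the 5 libraries), of glycolysis genes 7 of 16 rose (6 of 16), and of skeletal muscle markers 8 of 13 rose (4 of 13). Of fatty acid oxidation genes 1 of 20 rose and 3 fell, and of the other pathway genes 7 of 32 rose and 7 fell. Of liver markers 11 of 12 fell, with the same count without the 5 libraries. In a fit on log2 ALB in place of the share, SUCLG2 rose and 13 of 30 members fell (genes: 12.7% rose and 11.6% fell). PDHA1 had a slope of -0.49 ± 0.08 per log2 unit of ALB (adjusted p = 2.6e-05), and PDP1 one of -0.47 ± 0.15 (adjusted p = 0.0218). Without D10000 replicate 27 they were -0.44 and -0.64. Without the 5 libraries 3 members fell (PDP1, IDH3A and SUCLA2) and none rose, where 1.8% of genes fell and 3.96% rose. The share was correlated with ALB, as given above, and with log10 of the total gene count (r = 0.849 and rho = 0.738, adjusted p = 4e-05 for both by permutation; r = 0.76 without the 2 farthest libraries), a total that itself holds only assigned reads. Their separate parts in the slopes were not tested. A score of slow minus fast fibre genes and log2 ADIPOQ, an adipocyte marker, gave 0 members, with 0.0364% and 2.32% of genes rising and 0.0091% and 0.0637% falling. Without D10000 replicate 27 (ADIPOQ at 1234 CPM) the ADIPOQ fit gave 0 members, with 1 of 10876 genes rising and 0 falling.

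**Figure D3:**
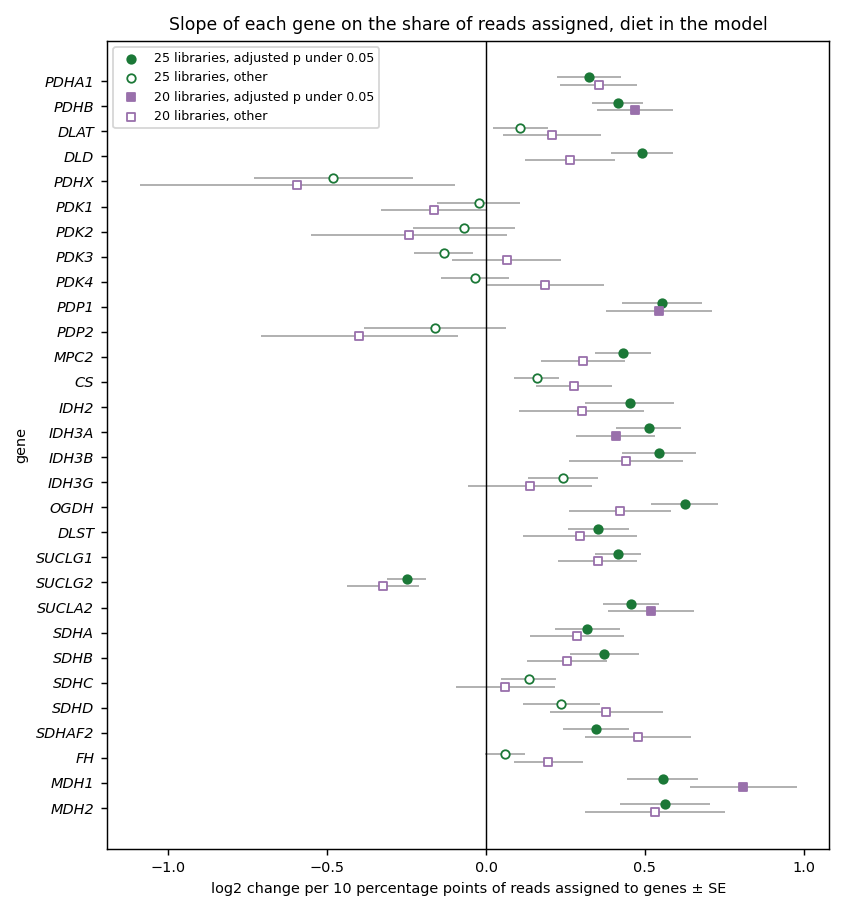
Slope of each member (vertical axis) on the share of reads assigned, in log2 units per 10 percentage points ± SE (horizontal axis), with diet in the model, for 25 libraries (circles) and 20 (squares); filled symbols passed an adjusted p of 0.05. With 25 libraries 17 members lie filled to the right and SUCLG2 alone is filled to the left, and the 4 kinases lie near 0.

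The 2 forms of succinyl-CoA ligase parted along this axis. SUCLG1 pairs either with SUCLA2, which makes ATP, or with SUCLG2, which makes GTP, and the GTP form is known from liver and kidney and the ATP form from tissues such as muscle and brain. SUCLG2 exceeded SUCLA2 in 25 of 25 libraries and took 82.7% ± 7.71 (SD, n = 25) of the reads of the pair. Such a share between different genes also depends on how well the annotated 3' end of each covers the true one. The same holds for the shares of the kinases, the phosphatases and the malate dehydrogenases given above. In CPM, SUCLA2 ran from 33.6 to 89.5 in the control (median 62.5), 18.3 to 82.5 in D5000 (median 56.0) and 33.1 to 72.7 in D10000 (median 64.2), and SUCLG2 from 159.7 to 486.5, 161.5 to 723 and 203.5 to 691 (medians 275, 355 and 286). The highest SUCLG2 (723 CPM) and the lowest SUCLA2 (18.3 CPM) were in the same library, D5000 replicate 18, which had the lowest share of reads assigned.

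The log2 ratio of SUCLA2 to SUCLG2 followed the share of reads assigned (Pearson r = 0.906 and Spearman rho = 0.905 over 25 libraries, both with adjusted p = 7e-05 over 7 ratios, from an unadjusted p of 1e-05, the smallest that 100000 permutations can give). Without the 2 libraries farthest from the median share r was 0.917, and without the 5 libraries 0.875 (adjusted p = 0.00028). It fell as ALB rose (r = -0.761 and rho = -0.774, adjusted p = 0.00014 and 0.00028 by permutation; without the 2 farthest libraries r = -0.822, and without D10000 replicate 27 r = -0.848). The ratio of PDK4 to PDP1 went down with the share (r = -0.69, rho = -0.556, adjusted p = 0.00042 and 0.0147; without the 2 farthest r = -0.635), but without the 5 libraries r was -0.454 with an adjusted p of 0.195. The other 5 ratios gave adjusted p of at least 0.933 for r. Libraries share depth and composition with their share of reads, and what sets the ratio was not tested.

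**Figure D4:**
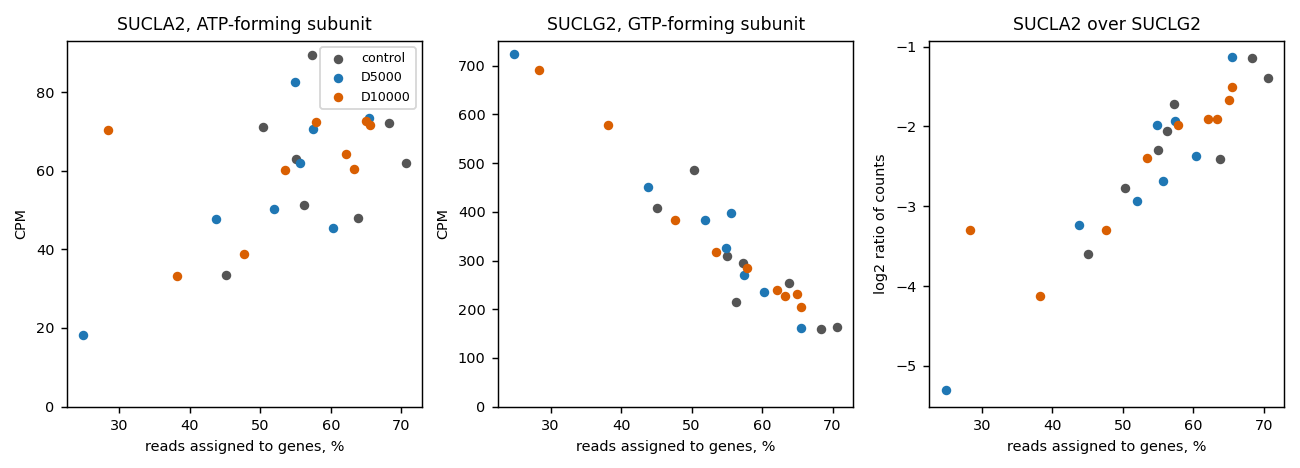
CPM of SUCLA2 (left), CPM of SUCLG2 (middle) and the log2 ratio of their counts (right) against the share of reads assigned to genes in percent (horizontal axes), 1 point per pig, coloured by diet. SUCLG2 goes down from 723 CPM at the lowest share, and the ratio goes up with r = 0.906 without separating the diets.

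Relations between subunits and between partner genes were mixed. Of 16 relations between members or with a partner gene (log2 CPM centred within diets, permutation within diets), 2 passed an adjusted p of 0.05. CS rose with SDHA (r = 0.594, rho = 0.488, adjusted p = 0.0343 and 0.0844) and fell as ACTA1, skeletal actin, rose (r = -0.621, rho = -0.528, adjusted p = 0.0343 and 0.0762). Without the 2 libraries farthest in CS they were 0.518 and -0.414, and without D10000 replicate 27 neither passed (r = 0.409 and -0.416, both with adjusted p = 0.118). Without the 5 libraries CS with SDHA passed again (r = 0.619, adjusted p = 0.0378) and CS with ACTA1 did not (r = -0.514, adjusted p = 0.0938). ACTA1 ran from 10030 CPM in D10000 replicate 27 to 213900 CPM in control replicate 10. At such levels a rise in ACTA1 by itself lowers the CPM of other genes, and its part in this relation was not tested. MDH1 with MDH2 gave r = 0.505 and rho = 0.572 (adjusted p = 0.0746 and 0.0427). For r it passed without the 5 libraries (0.758, adjusted p = 0.0128) and without D10000 replicate 27 (0.704, adjusted p = 0.0104). PDHA1 with PDHB gave r = 0.363 (adjusted p = 0.249). It passed without the 5 libraries (0.597, adjusted p = 0.0395) and without D10000 replicate 27 (0.631, adjusted p = 0.0304). OGDH with DLST, in one complex, gave r = 0.493 and rho = 0.474 (adjusted p = 0.0746 and 0.0844), and r = 0.519 (adjusted p = 0.0512) without that library. SDHA and SDHB, subunits of one enzyme, gave r = -0.14 (adjusted p = 0.677), and 0.445 (adjusted p = 0.102) without that library. PDK4 and ANGPTL4, another gene induced in fasting, gave r = 0.287 (rho = 0.42, adjusted p = 0.384 and 0.125), 0.646 (adjusted p = 0.0134) without D10000 replicate 27, 0.746 (adjusted p = 0.0128) without the 5 libraries, and -0.02 when only the 2 libraries farthest in PDK4 were left out.

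In D10000 replicate 27 the members did not move as one. It had the highest level of all 25 libraries for PDHA1 (391 CPM, 3.34 times the median of the other 8 pigs of its diet), PDK1 (78.4 CPM, 5.58 times), PDP2 (15.5 CPM, 5.28 times), CS (565.5 CPM, 1.87 times), IDH3G (102 CPM, 1.91 times) and SDHA (657 CPM, 3.48 times). It had the lowest for IDH2 (98.2 CPM, 0.238 times), SDHB (41.2 CPM, 0.199 times) and SDHD (9.33 CPM, 0.194 times), so that subunits of succinate dehydrogenase lay at both ends. These values stand beside the adipocyte and muscle marker sums given above, and come from 1 pig with no replicate, so their part in these levels was not tested.

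**Figure D5:**
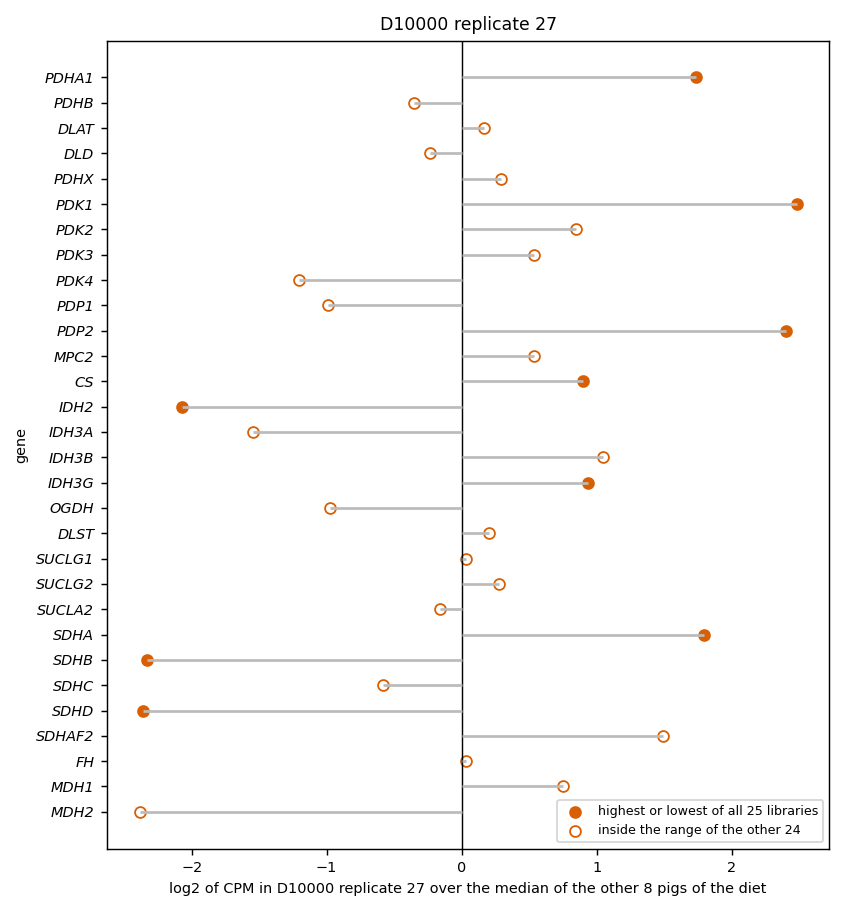
Log2 of the CPM in D10000 replicate 27 over the median of the other 8 pigs of the diet (horizontal axis) for each member (vertical axis); filled points are the highest or lowest of all 25 libraries. SDHA (3.48 times) and PDHA1 (3.34 times) lie to the right while SDHB (0.199 times) and SDHD (0.194 times) lie to the left.

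The wider pathway gave no call either. Of 37 other genes with an identifier (carriers, transaminases, malic enzymes, lipoate synthesis and the like) 32 were tested, and 0 passed the adjusted threshold in each contrast. The 2 with the smallest p at 10000 IU/kg were SLC25A1, the citrate carrier (1.53 ± 0.58, unadjusted p = 0.0128 in edgeR, but 0.07 without D10000 replicate 27), and GOT1, the cytosolic aspartate transaminase (-0.85 ± 0.35, and -0.71 without that library). At 5000 IU/kg they were SLC25A22 (0.96 ± 0.54, and 0.12 without the 5 libraries), a glutamate carrier, and SLC25A11 (-0.81 ± 0.49), the 2-oxoglutarate carrier. Between 10000 and 5000 IU/kg they were ME1, the cytosolic malic enzyme (1.14 ± 0.47), and SLC25A1 (1.26 ± 0.57), which were at 0.37 and -0.22 without D10000 replicate 27. Of 16 regulators of these genes with an identifier 13 were tested, 0 passed the adjusted threshold, and the vitamin D receptor gene VDR had too few counts to be tested.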

How the data were processed

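The authors deposited 1 file of raw read counts per pig, in whole numbers and unscaled, by Ensembl gene identifier. Per the labels' protocols, libraries were made from total RNA with the Lexogen QuantSeq 3' kit (FWD). The submitters' processing notes name FastQC. The aligner, counting program, genome build and strand setting are not given in the sources used here, so no coordinates are printed. Summary rows that name no gene stayed out of library sizes and tests. The share of reads assigned, 24.9% to 70.6%, is the gene reads over the gene, no-feature, ambiguous and non-uniquely aligned reads. Any other summary row was left out of that sum.

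Symbols came from an Ensembl table (14856 of 25879 identifiers). CPM is a count over the library's total gene count, times 1000000. Genes were filtered with filterByExpr (minimum count 10, minimum total 15), scaled by TMM and fitted with glmQLFit and glmQLFTest of edgeR 4.0.16 in R 4.3.3, with all 25 libraries in 1 fit and Benjamini-Hochberg adjustment over 10992 genes. SE is the log2 fold change over the root of F. Alternatives were RLE scaling, no filter, DESeq2 1.42.0, limma 3.58.1 (voom), the share of reads assigned as a covariate, and leaving out libraries. Ratios used counts plus 0.5. Correlations used log2(CPM + 1) with 100000 permutations within diets, Pearson's r after centring on the diet means and Spearman's rho without centring. Of 18 relations listed, 16 were run. The edgeR step was tested on simulated data.

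The rule for named genes gave every member, with full values for PDK4, PDK2, CS, PDHA1, SDHA, SUCLA2, IDH2 and MDH2 and any member with an unadjusted p under 0.05, and the 2 genes with the smallest p per contrast among other pathway genes. Members and lists were chosen with earlier results of these data known. The slopes on 4 library measures, the relations of 7 ratios with the share and with ALB, and the setting without 5 libraries were chosen after seeing the data.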

Additional observations from a re-analysis of the deposited data

Results flagged for a closer look

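In 15 of 90 groups (30 members in 3 diets) the highest or lowest pig lay far from the others of its diet by Dixon's criterion. For normal values the criterion flags about 1 group in 20. It was applied to CPM, which need not be normal, and some libraries recur among the flags. The count of flags therefore cannot be set against that rate. D10000 replicate 27 gave 4 of them: PDHA1 at 391 CPM (others 46.3 to 128), PDK1 at 78.4 (10.3 to 42.3), SDHA at 657 (115 to 291) and SDHD at 9.33 (34.6 to 57.3). D5000 replicate 29 was high for PDHA1 at 206 CPM (74.3 to 131), DLD at 94.6 (diet median 37.5) and DLST at 86.0 (15.0 to 48.0), of which DLD and DLST act in the same 2-oxoglutarate dehydrogenase complex. D5000 replicate 18, the library with the lowest share of reads assigned, was high for PDK3 at 86.6 CPM (12.6 to 34.5) and CS at 497 (256 to 343). Control replicate 23 was high for PDK2 at 41.5 CPM (8.06 to 23.0) and PDP2 at 13.3 (1.43 to 4.91), and control replicate 16 for IDH3A at 131 (69.5 to 96.6) and MDH1 at 151 (21.1 to 61.9). PDHX stood at 8.76 CPM in D10000 replicate 2 (0 to 3.69), and IDH3G was low in control replicate 28 at 18.9 CPM (52.2 to 74.4).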

How the results depend on the processing

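The count of 0 genes called for diet held under every alternative and with each library left out. The members' median log2 fold change ranged over the fits with 1 library left out from -0.223 to -0.016 at 5000 IU/kg, from -0.227 to -0.071 at 10000 IU/kg and from -0.128 to -0.001 between the doses. With limma-voom the median of all genes at 10000 IU/kg was -0.039 in place of 0.068. Named members, none of them called, changed sign as follows. At 10000 IU/kg PDK2 was 0.038 with RLE scaling and with DESeq2, and PDHA1 was -0.012 with limma-voom and -0.104 without D10000 replicate 27. Between the doses limma-voom gave PDHA1 -0.144, SDHA -0.079 and SUCLA2 0.058. With the share of reads as a covariate, 5000 IU/kg gave CS 0.013, SUCLA2 0.034, IDH2 0.01 and MDH2 0.105, 10000 IU/kg gave SUCLA2 0.037, and the doses against each other gave PDHA1 -0.065, SDHA -0.005 and SUCLA2 0.002. Without D10000 replicate 27 the doses gave PDHA1 -0.26, SDHA -0.128, SUCLA2 0.006, IDH2 0.035 and MDH2 0.06. Without the 5 libraries SUCLA2 was 0.106 at 5000 IU/kg, SUCLA2 0.036 and MDH2 0.058 at 10000 IU/kg, and between the doses PDHA1 was -0.248, SDHA -0.059, IDH2 0.165 and MDH2 0.113. Without these 5 libraries the members with a slope on the share numbered 5 in place of 18, the relations past the threshold 4 in place of 2, and the ratios following the share 1 in place of 2. The cause was not tested. No paired analysis was possible because animal numbers are not shared between diets and litters are not in the labels. Depth limits PDHX and PDP2 most.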
